A study of Mus musculus with 8 samples.

Results

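The inflammasome and interleukin 1 genes described here are 9 genes chosen by name, namely Nlrp3, Pycard, Casp1, Casp4, Gsdmd, Il1b, Il18, Il18bp and Il1r2. All 9 were among the 12830 genes of the count tables and all 9 passed the filter on low counts. Inflammasomes are cytosolic assemblies in which a sensor such as NLRP3 recruits the adaptor ASC, encoded by Pycard, and the protease caspase 1. Caspase 1 cuts the precursors of interleukin 1 beta and interleukin 18 into their active forms and opens gasdermin D, whose released fragment forms pores in the plasma membrane. Caspase 11, encoded by Casp4 in the mouse, cuts gasdermin D in response to cytosolic lipopolysaccharide. Monocytes, macrophages and neutrophils carry this machinery, and its output is held back by a decoy receptor (Il1r2), a receptor antagonist (Il1rn) and a soluble binding protein (Il18bp).

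RNA was sequenced from AML410, a mouse acute myeloid leukaemia on the C57BL/6 background with a monosomal karyotype, a p53-/- genotype and a short hairpin RNA against PU.1, and these features were shared by every group. Spi1 is the gene for PU.1, a regulator of transcription that myeloid development needs. Giving doxycycline (Dox) to the leukaemic mice shut off the hairpin, which is linked to green fluorescent protein (GFP), so that endogenous PU.1 could return. The 4 groups were GFPhigh bone marrow cells of untreated mice, GFPhigh-mid cells after 2 days of Dox, GFPmid cells after 4 days and GFPlow cells after 6 days. Each group held 2 libraries. The gate changed with the day, and Dox-treated cells without the hairpin were not analysed here, so time, gate and Dox itself cannot be told apart. All libraries come from a single leukaemia. The sample titles name the libraries technical replicates, whereas the design text speaks of duplicate mice, so the p-values measure the spread between these libraries, which may be technical.

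The libraries held 9262047 to 11213292 counts. Levels are given in CPM, counts scaled to a common library size, after scaling of the libraries by the trimmed mean of M values (TMM), at which 1 count corresponded to 0.0839 to 0.115 CPM. Fold changes, standard errors (SE) and adjusted p-values come from the edgeR quasi-likelihood test with Benjamini-Hochberg adjustment over all 12330 genes tested, and a gene was called at an adjusted p under 0.05. Spi1 stood at 10.6 ± 3.23, 15.2 ± 0.606, 98.4 ± 6.11 and 223 ± 8.35 CPM in untreated cells and at days 2, 4 and 6 (SD, n = 2 each). Day 2 replicate 1 stood apart, with 13.3% of its counts in a single gene, against 0.957 to 1.73% for the leading gene of the other libraries. Ptprc, which encodes the leukocyte antigen CD45, and the myeloid protease gene Elane were counted in all 8 libraries. Ptprc averaged 681 CPM at day 6, against 27.3 CPM in untreated cells, and the progenitor receptor gene Kit 36.6 CPM at day 6, against 129 CPM in untreated cells.

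A test of any difference among the 4 groups called all 9 genes (edgeR adjusted p under 0.05), and 65.1% of all genes tested. The pattern over time was not shared by all of them. At day 2 only Il1r2 was called among the 9, and it was higher than in untreated cells, where 6.13% of all genes were called in either direction, 4.18% higher and 1.95% lower. At day 4 the sensor, the adaptor, Casp1, Gsdmd, both cytokines and Il1r2 were higher and Il18bp was lower than in untreated cells. That made 7 of 9 higher, against 26.1% of all genes, and 1 of 9 lower, against 22.0% of all genes (48.0% in either direction). By day 6, 8 of 9 were higher, against 32.0% of all genes, and none was lower, against 31.6% of all genes (63.6% in either direction). Il18bp was the gene not called. Il1b, among the higher genes at days 4 and 6, entered the tables through its Dox libraries, as described below. The median log2 fold change of the 9 genes was 0.13 at day 2, 0.88 at day 4 and 1.35 at day 6, while the median of all genes was 0.0042, −0.02 and −0.04.

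**Figure D1:**
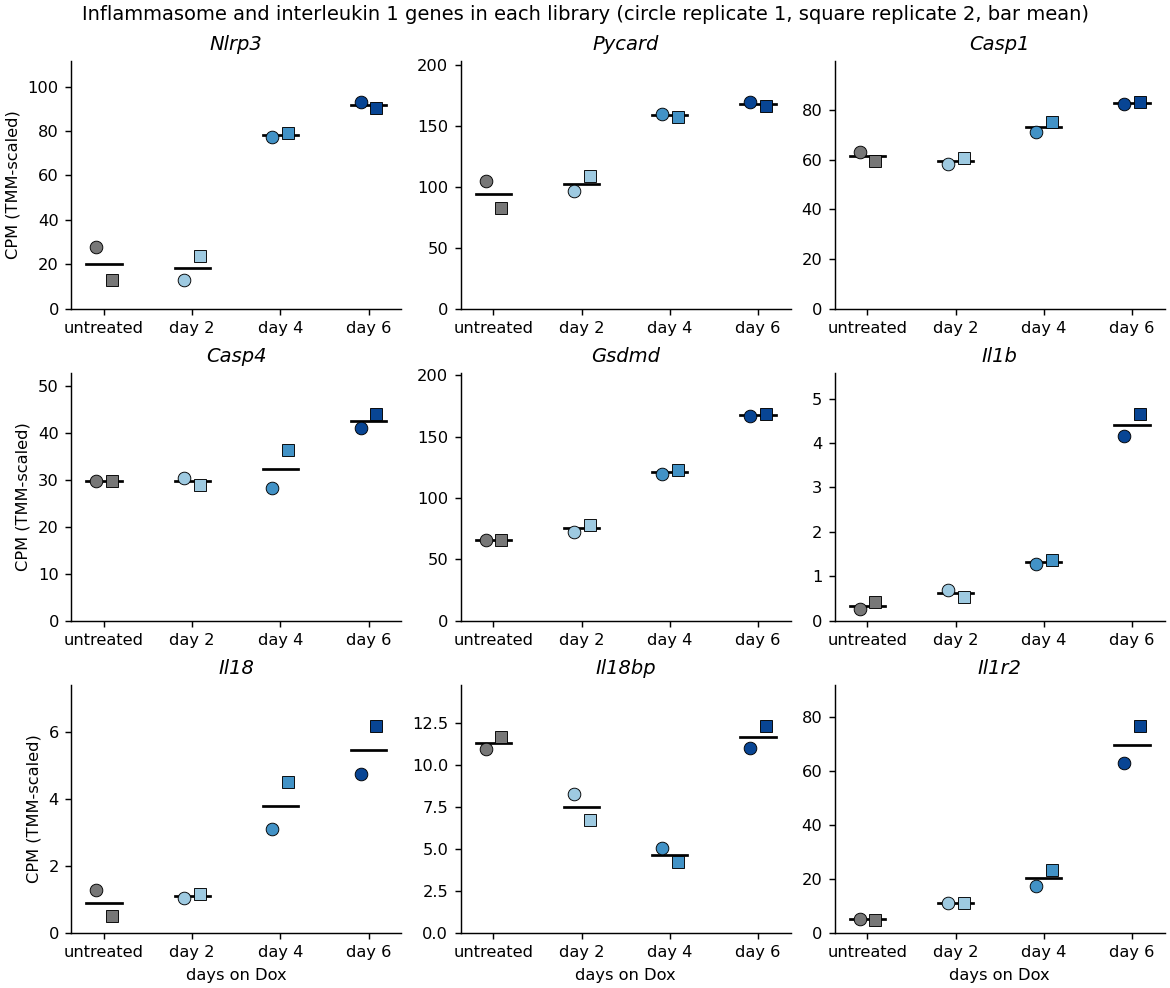
Level of each gene in each library, in CPM on a linear axis that starts at 0, with circles for replicate 1, squares for replicate 2 and a bar at the group mean. Nlrp3 and Pycard reached most of their day 6 level by day 4, Il1b and Il1r2 stood highest at day 6, and Il18bp was lowest at day 4.

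The sensor gene Nlrp3 (gene 216799, chromosome 11, 59541569 to 59566955, mm10) varied within the untreated and day 2 groups and stepped up between days 2 and 4. It had 27.9 and 12.7 CPM in the untreated libraries, 12.8 and 23.9 CPM at day 2, 77.4 and 78.9 CPM at day 4, and 92.9 and 90.2 CPM at day 6. The untreated and day 2 libraries overlapped, and all day 4 and day 6 libraries lay above both. At day 4 Nlrp3 was 3.85-fold higher than in untreated cells (log2 fold change 1.94, SE 0.28, edgeR adjusted p = 0.000146), and at day 6 it was 4.51-fold higher (log2 fold change 2.17, SE 0.28, edgeR adjusted p = 3.59e-05). Without untreated replicate 1, the higher of the untreated libraries, these log2 values were 2.62 and 2.85. The step from day 2 to day 4 was 2.06 (SE 0.29, edgeR adjusted p = 0.000162), and day 6 against day 4 gave 0.23 (SE 0.25, edgeR adjusted p = 0.527). The later step was smaller than the earlier by 1.83 on the log2 scale (contrast −1.83, SE 0.45, edgeR adjusted p = 0.0211). Among all genes this contrast was called negative for 8.38% and in either direction for 11.5%. A negative value can also come from a gene that fell more in the later step. The call of that contrast was lost without either day 4 library (edgeR adjusted p = 0.118 and 0.113), without either day 6 library (edgeR adjusted p = 0.0743 and 0.0889) and in DESeq2 (adjusted p = 0.189).

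Pycard encodes ASC, the adaptor that links sensors to caspase 1 (gene 66824, chromosome 7, 127991373 to 127993867). It had 105 and 82.9 CPM in untreated cells, 96.6 and 108 CPM at day 2, 160 and 157 CPM at day 4, and 169.1 and 165.9 CPM at day 6. As for Nlrp3, the untreated and day 2 libraries overlapped and the later libraries lay above them. Pycard was 1.69-fold higher at day 4 (log2 fold change 0.76, SE 0.10, edgeR adjusted p = 0.000104) and 1.79-fold higher at day 6 (log2 fold change 0.84, SE 0.10, edgeR adjusted p = 2.78e-05) than in untreated cells. Day 6 against day 4 gave 0.08 (SE 0.10, edgeR adjusted p = 0.599), which was −0.10 under scaling by total counts. In GENCODE M21 Pycard shares 485 exon bases with Gm45205 on the opposite strand, and part of its counts may belong to that gene.

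Casp1 (gene 12362, chromosome 9, 5298517 to 5307281), the protease of canonical inflammasomes, moved little. Its levels were 63.3 and 59.4 CPM in untreated cells, 58.4 and 60.8 CPM at day 2, 71.2 and 75.1 CPM at day 4, and 82.4 and 83.1 CPM at day 6. The day 4 and day 6 libraries lay above all untreated and day 2 libraries. Against untreated cells it was 1.19-fold higher at day 4 (log2 fold change 0.25, SE 0.08, edgeR adjusted p = 0.0173) and 1.35-fold higher at day 6 (log2 fold change 0.43, SE 0.08, edgeR adjusted p = 0.000444). At day 4 the call was lost without untreated replicate 2 (edgeR adjusted p = 0.0668), without day 4 replicate 2 (edgeR adjusted p = 0.112) and in DESeq2 (adjusted p = 0.0920). Under scaling by total counts, where the median of all genes was −0.27 at day 4 and −0.47 at day 6, Casp1 stood at 0.0038 and −0.00057, so its rise is relative to most other genes and not to the total of counts.

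Casp4 (gene 12363, chromosome 9, 5308849 to 5336791) starts 1567 bases beyond the end of Casp1. The encoded proteases are relatives, and how reads matching both genes were assigned is not given in the sources used here. Casp4 had 29.7 and 29.8 CPM in untreated cells, 30.3 and 28.9 CPM at day 2, 28.2 and 36.4 CPM at day 4, and 41.0 and 43.9 CPM at day 6. The day 4 libraries lay on both sides of the untreated ones, and the day 6 libraries lay above all others. At day 6 Casp4 was 1.43-fold higher than in untreated cells (log2 fold change 0.51, SE 0.12, edgeR adjusted p = 0.00288), or 0.08 on the log2 scale under scaling by total counts, which was not called (edgeR adjusted p = 0.651). Day 6 against day 4 gave 0.40 (SE 0.12, edgeR adjusted p = 0.0281). That call was lost without day 4 replicate 1 (0.22, edgeR adjusted p = 0.246), without day 6 replicate 1 (0.45, edgeR adjusted p = 0.0788) or day 6 replicate 2 (0.35, edgeR adjusted p = 0.172), in DESeq2 (0.42, adjusted p = 0.0595) and with total-count scaling (0.21, edgeR adjusted p = 0.304).

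Gsdmd, which encodes the pore-forming gasdermin D (gene 69146, chromosome 15, 75862144 to 75867408), rose at each later step. It had 65.8 CPM in each untreated library, 72.4 and 78.0 CPM at day 2, 119 and 123 CPM at day 4, and 166.5 and 168.04 CPM at day 6. The 4 groups did not overlap. Against untreated cells the log2 fold change was 0.19 at day 2 (SE 0.07, edgeR adjusted p = 0.160), 0.88 at day 4 (SE 0.07, edgeR adjusted p = 1.84e-06) and 1.35 at day 6 (SE 0.07, edgeR adjusted p = 3.01e-08). Day 4 against day 2 gave 0.68 (SE 0.07, edgeR adjusted p = 2.16e-05) and day 6 against day 4 gave 0.47 (SE 0.07, edgeR adjusted p = 0.000673). With total-count scaling the later of these lost its call (0.28, edgeR adjusted p = 0.115).

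**Figure D2:**
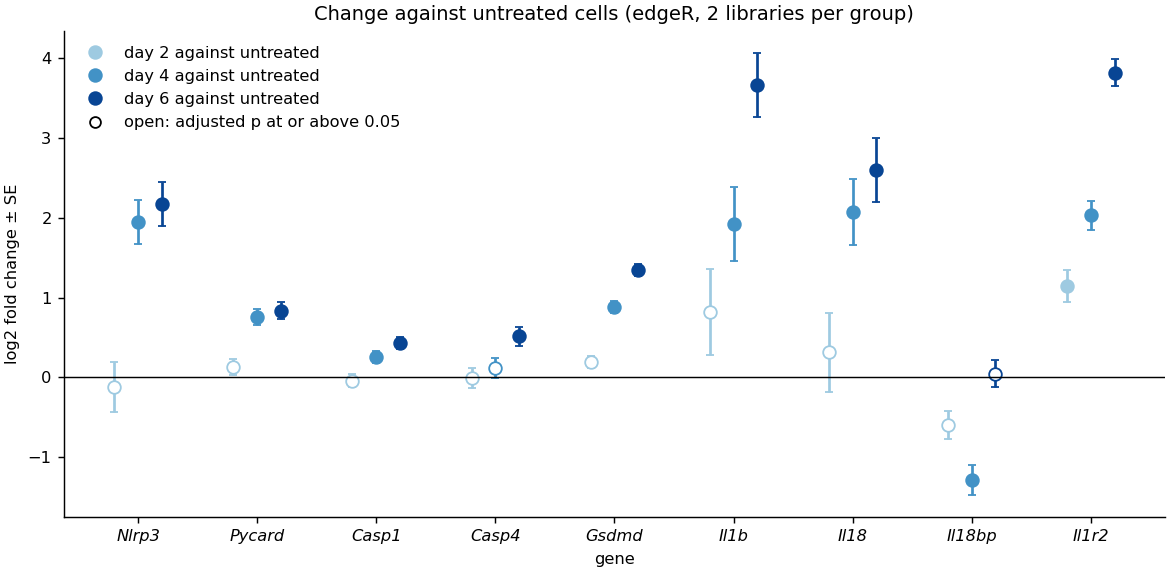
Log2 fold change against untreated cells at days 2, 4 and 6 for each gene, with SE bars from the edgeR fit, filled where the adjusted p was under 0.05. Il1b and Il1r2 reached 3.66 and 3.82 at day 6, Casp1 and Casp4 stayed at 0.43 and 0.51, and Il18bp was −1.28 at day 4.

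PU.1 binds DNA at sequences around the core GAGGAA, so the promoters of the genes were searched for this core on both strands (its reverse complement is TTCCTC). The RefSeq table of promoters (GRCm38.p6, from 250 bases before to 50 after each transcript start) held 8 of the 9 genes, all but Gsdmd. Of the 10 windows of these genes, 3 held a match, against 28.3% of all 32851 windows, and the shorter core GGAA, which overlaps GAGGAA, was in 96.0% of all windows. The 3 matching promoters are those of Nlrp3, Pycard and Casp1, and the 250 bases before the start are printed 5′ to 3′ on the strand of the gene, with each match in capitals. For Nlrp3 the window is that of the downstream start, on the plus strand at chr11:59542436-59542685, and the matches begin 220, 129 and 36 bases before the start.
Nlrp3: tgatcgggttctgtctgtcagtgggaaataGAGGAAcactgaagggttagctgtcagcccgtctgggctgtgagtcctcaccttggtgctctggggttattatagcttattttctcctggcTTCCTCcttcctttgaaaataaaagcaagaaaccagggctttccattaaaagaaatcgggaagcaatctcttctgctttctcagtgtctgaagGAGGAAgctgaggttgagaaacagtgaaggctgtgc
Pycard lies on the minus strand, at chr7:127993868-127994117, with a match that begins 42 bases before the start.
Pycard: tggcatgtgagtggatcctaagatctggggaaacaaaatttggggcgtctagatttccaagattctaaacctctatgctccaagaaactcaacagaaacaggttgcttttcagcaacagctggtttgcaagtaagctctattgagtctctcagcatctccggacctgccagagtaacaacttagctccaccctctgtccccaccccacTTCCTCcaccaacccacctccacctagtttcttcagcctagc
Casp1 lies on the plus strand, at chr9:5298267-5298516, with a match that begins 108 bases before the start.
Casp1: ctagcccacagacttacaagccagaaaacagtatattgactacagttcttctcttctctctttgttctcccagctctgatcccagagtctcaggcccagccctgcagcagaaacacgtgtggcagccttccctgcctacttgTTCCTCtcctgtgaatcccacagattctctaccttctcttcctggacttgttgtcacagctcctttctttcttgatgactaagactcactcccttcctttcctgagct
The matches are descriptions of these letters and no binding was measured.

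The cytokine gene Il1b was barely counted in untreated cells and rose late. Il1b (gene 16176, chromosome 2, 129364569 to 129371164) had 3 and 5 counts in the untreated libraries, 6 and 6 at day 2, 14 and 14 at day 4, and 37 and 43 at day 6. Its level was 0.255 and 0.419 CPM in untreated cells, 0.692 and 0.539 CPM at day 2, 1.27 and 1.37 CPM at day 4, and 4.17 and 4.65 CPM at day 6. The 4 groups did not overlap. Against untreated cells the log2 fold change was 0.82 at day 2 (SE 0.54, edgeR adjusted p = 0.464), 1.93 at day 4 (SE 0.46, edgeR adjusted p = 0.00513) and 3.66 at day 6 (SE 0.40, edgeR adjusted p = 9.96e-06). Day 6 was 12.6-fold above untreated cells. Both untreated libraries lay below 0.501 CPM, the lowest third-highest value of any deposited gene. Il1b was thus in the tables and tested through its Dox libraries. A rise was therefore favoured in advance, and the fold rests on few untreated counts. Day 4 against day 2 gave 1.10 (SE 0.43, edgeR adjusted p = 0.0657) and day 6 against day 4 gave 1.73 (SE 0.33, edgeR adjusted p = 0.00243). An antisense gene, Il1bos, shares 25 exon bases with Il1b in GENCODE M21, and the counting is not stated to use strand.

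Il18, the other cytokine cut by caspase 1 (gene 16173, chromosome 9, 50554700 to 50581841), was also low throughout. It had 15 and 6 counts in untreated cells, 9 and 13 at day 2, 34 and 46 at day 4, and 42 and 57 at day 6. Its level was 1.28 and 0.503 CPM in untreated cells, 1.04 and 1.17 CPM at day 2, 3.09 and 4.49 CPM at day 4, and 4.73 and 6.16 CPM at day 6. Untreated and day 2 libraries overlapped, and the day 4 and day 6 libraries lay above both. Il18 was 4.21-fold higher at day 4 (log2 fold change 2.07, SE 0.41, edgeR adjusted p = 0.00153) and 6.07-fold higher at day 6 (log2 fold change 2.60, SE 0.40, edgeR adjusted p = 0.000159) than in untreated cells. Without untreated replicate 1 these log2 values were 2.88 and 3.41. The rise was called from day 2 to day 4 (1.76, SE 0.41, edgeR adjusted p = 0.00564), though not without day 4 replicate 2 (1.46, edgeR adjusted p = 0.0538). Day 6 against day 4 gave 0.53 (SE 0.33, edgeR adjusted p = 0.263).

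Il18bp encodes the secreted protein that binds and neutralises interleukin 18 (gene 16068, chromosome 7, 102015074 to 102018232), and it was the only one of the 9 genes called lower in any comparison of groups. It had 11.0 and 11.7 CPM in untreated cells, 8.30 and 6.73 CPM at day 2, 5.08 and 4.19 CPM at day 4, and 11.0 and 12.3 CPM at day 6. The day 4 libraries lay below all others, and the day 6 and untreated libraries overlapped. Against untreated cells the log2 fold change was −0.60 at day 2 (SE 0.18, edgeR adjusted p = 0.0729), −1.28 at day 4 (SE 0.19, edgeR adjusted p = 0.000169) and 0.05 at day 6 (SE 0.17, edgeR adjusted p = 0.830). The day 2 value was called under scaling by total counts (−0.78, edgeR adjusted p = 0.0218). That scaling gave −0.39 at day 6 (edgeR adjusted p = 0.0839). From day 4 to day 6 the gene rose 2.51-fold (log2 fold change 1.33, SE 0.19, edgeR adjusted p = 0.000479). From day 2 to day 4 it fell by 0.68 on the log2 scale (SE 0.20, edgeR adjusted p = 0.0182), a call lost without day 2 replicate 1 (−0.54, edgeR adjusted p = 0.113), without day 4 replicate 2 (−0.56, edgeR adjusted p = 0.118) and in DESeq2 (−0.70, adjusted p = 0.0779). The difference of the later from the earlier step was 2.01 (SE 0.34, edgeR adjusted p = 0.00268) and was called in all 14 settings run, including the main one. In the main test this contrast was called positive for 3.15% of all genes. In GENCODE M21 the gene shares 80 exon bases with Numa1 on the opposite strand, so part of its counts may belong to that gene.

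Il1r2 encodes the decoy receptor that binds interleukin 1 without signalling (gene 16178, chromosome 1, 40084692 to 40125230). It was the earliest of the genes to be called and rose at every step. It had 5.28 and 4.61 CPM in untreated cells, 11.1 and 10.9 CPM at day 2, 17.4 and 23.1 CPM at day 4, and 62.9 and 76.6 CPM at day 6, and the 4 groups did not overlap. At day 2 it was 2.21-fold higher than in untreated cells (log2 fold change 1.15, SE 0.20, edgeR adjusted p = 0.00764), where 4.18% of all genes were called higher. Without untreated replicate 2 the value was 1.05 and was not called (edgeR adjusted p = 0.0700). It was 4.08-fold higher at day 4 (log2 fold change 2.03, SE 0.18, edgeR adjusted p = 3.62e-06) and 14.1-fold higher at day 6 (log2 fold change 3.82, SE 0.17, edgeR adjusted p = 6.44e-09). Day 4 against day 2 gave 0.88 (SE 0.17, edgeR adjusted p = 0.00150) and day 6 against day 4 gave 1.79 (SE 0.14, edgeR adjusted p = 1.69e-05). The later step exceeded the earlier by 0.90 (SE 0.27, edgeR adjusted p = 0.0545), which did not pass the test.

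Of the 9 genes, 6 were higher and 1 was lower at day 4 than at day 2, where 21.7% of all genes were higher and 15.9% lower (37.6% in either direction). From day 4 to day 6, 5 were higher and none lower, where 15.9% of all genes were higher and 14.0% lower (29.9% in either direction). Those 5 were Casp4, Gsdmd, Il1b, Il18bp and Il1r2. Casp1 was called from day 2 to day 4 (0.29, SE 0.08, edgeR adjusted p = 0.0111), though not without day 2 replicate 1 (edgeR adjusted p = 0.0853), without day 4 replicate 2 (edgeR adjusted p = 0.0864), in DESeq2 (adjusted p = 0.0606) or with total-count scaling (edgeR adjusted p = 0.240). Fewer of the 9 genes were called from day 2 to day 4 without day 4 replicate 2, and fewer of all genes were called too. Nlrp3, Pycard and Il18, called from day 2 to day 4, gave 0.23, 0.08 and 0.53 in the later step without passing.

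Per length, in CPM per kilobase of the deposited gene length (RPKM), the order of the genes was headed by the adaptor, the protease and the effector in every group. In untreated cells Pycard stood at 43.9 ± 7.19, Casp1 at 40.5 ± 1.82, Gsdmd at 37.1 ± 0.00215 and Casp4 at 20.8 ± 0.0253 RPKM (SD, n = 2). Il18bp followed at 8.07 ± 0.339, Nlrp3 at 5.06 ± 2.67, Il1r2 at 3.68 ± 0.351, Il18 at 1.03 ± 0.632 and Il1b at 0.254 ± 0.0872 RPKM. In untreated cells the libraries of Pycard overlapped with those of Casp1, and those of Nlrp3 with those of Il1r2. At day 6 the order was Gsdmd (94.2 ± 0.601), Pycard (78.5 ± 1.07), Casp1 (54.7 ± 0.318), Il1r2 (52.0 ± 7.20), Casp4 (29.6 ± 1.43), Nlrp3 (22.8 ± 0.468), Il18bp (8.33 ± 0.648), Il18 (6.29 ± 1.17) and Il1b (3.32 ± 0.256 RPKM). At day 6 Casp1 and Il1r2 were the neighbours whose libraries overlapped. The cytokine genes Il18 and Il1b thus ranked lowest at day 6, as in untreated cells.

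**Figure D3:**
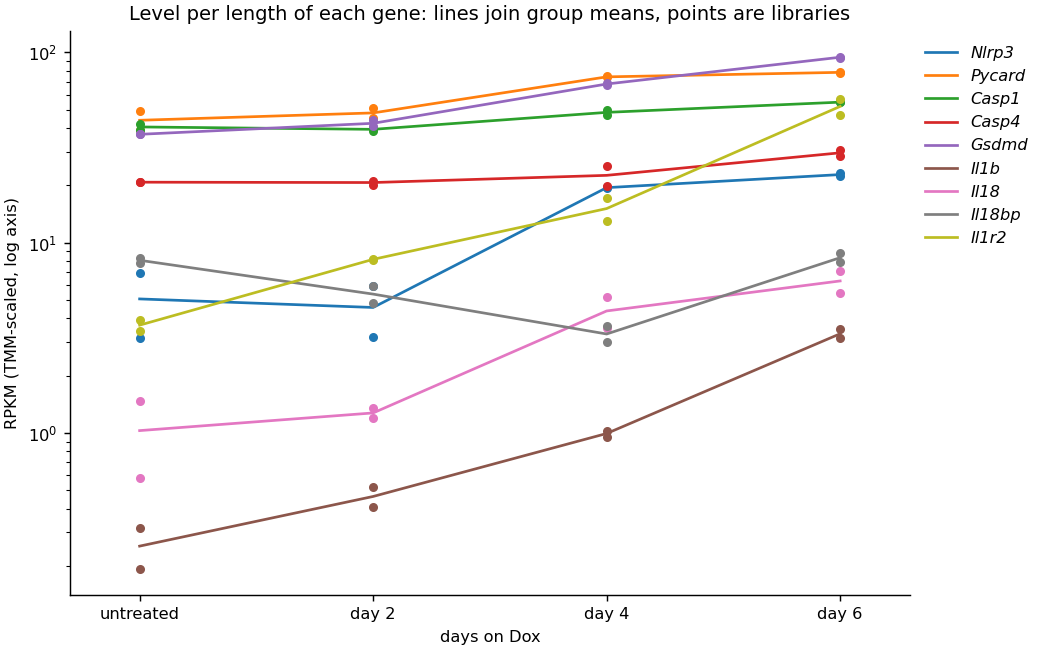
Level per length of each gene in RPKM on a log axis, with lines through group means and a point for each library. Pycard, Casp1, Gsdmd and Casp4 had group means of 20.7 to 94.2 RPKM, while Il1r2 climbed past Il18bp, Nlrp3 and Casp4, and Il1b stayed lowest in every group.

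Levels of inhibitors were set beside their targets on this per-length scale, in pairs chosen by role after the values were seen. Il1rn, the receptor antagonist gene, had 2.55 ± 0.472 RPKM in untreated cells, 4.04 ± 0.342 RPKM at day 2, 9.83 ± 0.967 RPKM at day 4 and 30.1 ± 6.23 RPKM at day 6 (SD, n = 2 each). The ratio of Il1rn to Il1b RPKM was 15.0 and 7.01 in untreated cells, 8.22 and 9.38 at day 2, 9.55 and 10.2 at day 4, and 8.18 and 9.85 at day 6. These ratios overlapped between untreated and each Dox day, and both genes were called higher at day 6 than in untreated cells. The ratio of Il1r2, the decoy, to Il1r1, the signalling receptor, was 1.49 and 1.23 in untreated cells, 3.64 and 4.63 at day 2, 10.4 and 15.3 at day 4, and 47.6 and 51.1 at day 6, with no overlap between groups. The ratio of Il1r2 to Il1b, the ligand the decoy binds, was 20.4 and 10.9 in untreated cells, 15.8 and 19.9 at day 2, 13.6 and 16.7 at day 4, and 14.9 and 16.3 at day 6. Every Dox day lay within the untreated range. Il1b had 3 and 5 counts in the untreated libraries, so the untreated ratios to Il1b are uncertain. Overlap with them, for Il1r2 or Il1rn, cannot show that a ratio stayed the same. The ratio of Il18bp to Il18 was 5.31 and 14.3 in untreated cells, 4.94 and 3.56 at day 2, 1.02 and 0.577 at day 4, and 1.44 and 1.24 at day 6. Every day 4 and day 6 library had a lower ratio than the untreated and day 2 libraries. Il18 had 15 and 6 counts in the untreated libraries and 9 and 13 at day 2, so those ratios are uncertain too. At day 6 Il18bp itself was not called against untreated cells (log2 fold change 0.05, edgeR adjusted p = 0.830).

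Il1r2 lies in a cluster on chromosome 1 with the receptor genes Il1r1 (40222480 to 40316201), Il1rl1, Il18r1 and Il18rap, which spans 467016 bases. Its neighbours did not move alike. At day 6 Il1r1 had 5.29 ± 0.470 CPM, against 13.7 ± 0.569 CPM in untreated cells (SD, n = 2 each; log2 fold change −1.37, SE 0.19, edgeR adjusted p = 6.13e-05). Il18r1, a chain of the interleukin 18 receptor, had 9.97 ± 0.724 CPM at day 6, against 0.803 ± 0.0684 CPM in untreated cells (log2 fold change 3.62, SE 0.30, edgeR adjusted p = 1.02e-06). Il18r1 had 10 and 9 counts in the untreated libraries. It passed the filter on low counts through its day 4 and day 6 libraries, so a rise was favoured in advance. Il18rap, the accessory chain, had 57.8 ± 0.0429 CPM at day 6, against 17.6 ± 0.407 CPM in untreated cells (log2 fold change 1.72, SE 0.12, edgeR adjusted p = 1.68e-07), and at day 4 it was at 18.2 ± 3.05 CPM. Il1rl1, the receptor for interleukin 33, did not pass the filter on low counts and had 17 and 9 counts at day 6, against 3 and 8 in untreated cells.

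Other genes of the pathway, in 5 lists drawn up by role, are given for day 6 against untreated cells. Of all genes 32.0% were higher and 31.6% lower in this comparison. Of 11 other sensor genes tested, 8 were higher, none lower and 3 were not called (Aim2, Mefv and Nlrp10), with a median log2 fold change of 1.30. Nlrc4, which responds to flagellin through NAIP proteins, had 19.8 ± 0.341 CPM at day 6, against 0.802 ± 0.0511 CPM in untreated cells (log2 fold change 4.6, SE 0.28, edgeR adjusted p = 6.59e-08). Nlrp1a and Nlrp1b rose by 4.48 and 3.73 on the log2 scale. In the untreated libraries Nlrp1a had 6 and 5 counts, and Naip1, among the 8 higher genes, had 10 and 6. Nlrp1a and Naip1 passed the filter on low counts through their day 4 and day 6 libraries, so a rise was favoured in advance. Nlrp1a and Nlrp1b are close relatives of each other, as are the Naip genes of this list, and reads may be shared among them, so their separate values are uncertain.

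Of 11 cofactor and regulator genes, 6 were higher, 4 lower and 1 was not called, with a median of 0.30. P2rx7, the ATP-gated channel that triggers NLRP3, had 56.2 ± 2.80 CPM at day 6, against 9.73 ± 2.85 CPM in untreated cells (log2 fold change 2.53, SE 0.17, edgeR adjusted p = 1.40e-07). Gbp2, a guanylate-binding protein gene, rose by 2.03 and the gasdermin gene Gsdme by 1.79 on the log2 scale. The 4 lower genes were Gbp5, Panx1, Serpinb1a and Ninj1. Gbp5 had 23.4 ± 2.94 CPM at day 6, against 64.9 ± 13.6 CPM in untreated cells (log2 fold change −1.47, SE 0.19, edgeR adjusted p = 4.71e-05). By this test the channel gene Panx1, the serine protease inhibitor gene Serpinb1a and the membrane rupture gene Ninj1 fell by 0.58, 0.55 and 0.25 on the log2 scale. Ninj1 was not called without untreated replicate 1 (edgeR adjusted p = 0.311), without day 6 replicate 1 (edgeR adjusted p = 0.132) or day 6 replicate 2 (edgeR adjusted p = 0.137), in DESeq2 (adjusted p = 0.0999) or with the replicate number as a block (edgeR adjusted p = 0.0501).

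Of 6 other ligand and receptor genes tested, 3 were higher (Il18r1, Il1rn and Il18rap), 2 lower (Il1r1 and Il1rap) and 1 was not called, with a median of 1.0. With no filter, 7 genes of this list were tested and 4 were higher, where 4003 of all genes were higher and 3916 lower. The added gene was Il1rl1, which was also tested when any 1 library other than day 6 replicate 1 was left out. In those fits it passed the filter through day 6 replicate 1, where it had 17 counts, so a rise was favoured in advance. Il1rn had 80.9 ± 16.8 CPM at day 6, against 6.85 ± 1.27 CPM in untreated cells (log2 fold change 3.56, SE 0.18, edgeR adjusted p = 1.48e-08). Il1rap, the accessory chain of the interleukin 1 receptor, fell by 0.39 on the log2 scale (edgeR adjusted p = 0.00178). Of 10 genes of receptor signalling, 8 were higher, 1 lower and 1 was not called, with a median of 0.50. The kinase gene Irak2 rose by 1.88, the adaptor gene Myd88 by 1.06 and Tab2, which links the TAK1 kinase to its activators, by 0.95 on the log2 scale. Tollip, an inhibitor of the pathway, gave −0.19 (edgeR adjusted p = 0.0498), a call lost without untreated replicate 1 (edgeR adjusted p = 0.0866), untreated replicate 2 (edgeR adjusted p = 0.0919), day 2 replicate 1 (edgeR adjusted p = 0.0593), day 2 replicate 2 (edgeR adjusted p = 0.0677), day 4 replicate 1 (edgeR adjusted p = 0.0669), day 4 replicate 2 (edgeR adjusted p = 0.0584) or day 6 replicate 1 (edgeR adjusted p = 0.367). It was also lost under RLE scaling (edgeR adjusted p = 0.0624), with no filter (edgeR adjusted p = 0.0567), in DESeq2 (adjusted p = 0.118) and with the replicate number as a block (edgeR adjusted p = 0.0576).

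All 9 NF-kB genes, which encode or restrain the factor that primes transcription of Nlrp3 and Il1b, were higher at day 6, with a median of 0.92. The subunit gene Rel had 32.5 ± 1.24 CPM at day 6, against 5.15 ± 0.422 CPM in untreated cells (log2 fold change 2.66, SE 0.16, edgeR adjusted p = 7.06e-08). Nfkbie, an inhibitor gene, rose by 2.16 and the subunit gene Relb by 1.92. Under scaling by total counts 6 of the 9 were called higher and none lower, and receptor signalling gave 4 higher and 2 lower. The sensors then gave 7 higher and 1 lower, and the cofactors 4 higher and 5 lower. Over all 12330 genes tested that scaling gave 2078 higher and 6647 lower. The lists were drawn up with earlier results of these data known. In the main test 63.6% of all genes were called in this comparison, 32.0% higher and 31.6% lower.

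**Figure D4:**
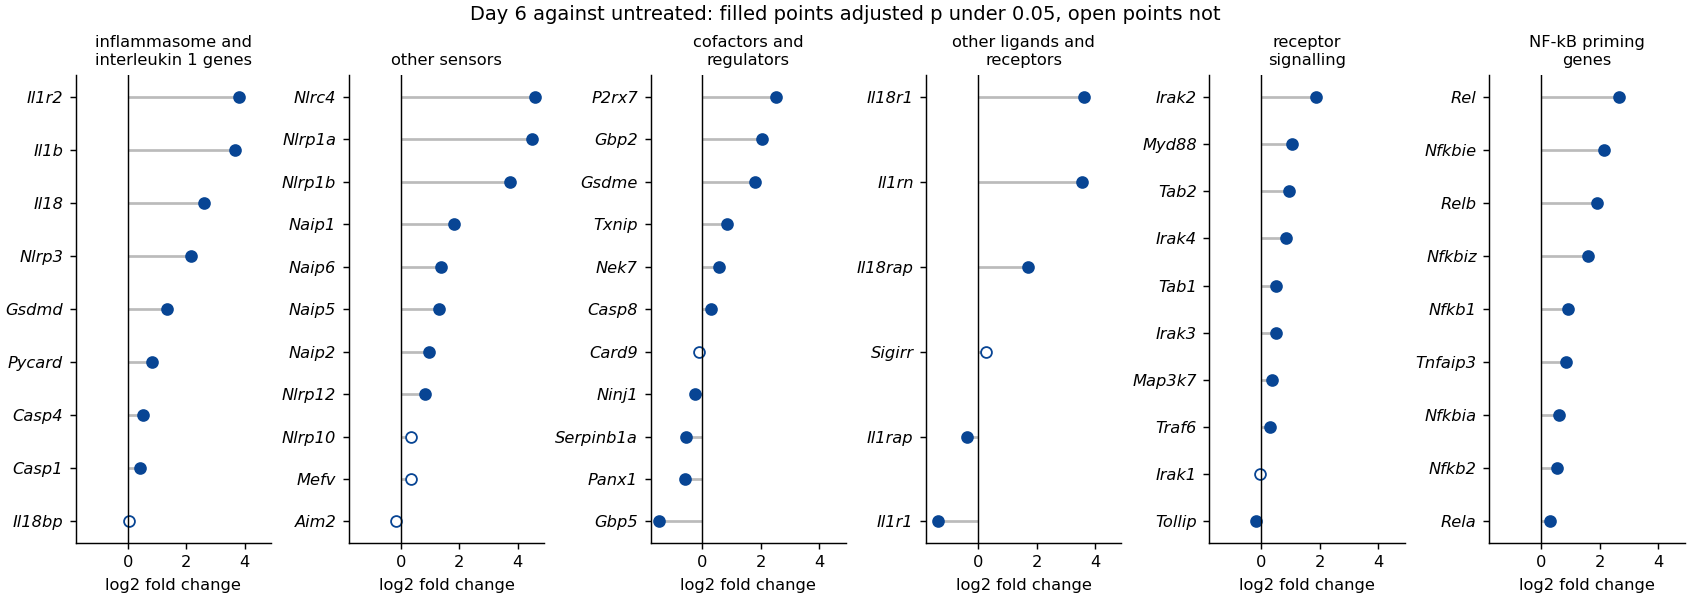
Log2 fold change at day 6 against untreated cells for the 9 genes and the 5 other pathway lists, sorted within each list, with filled points for adjusted p under 0.05. Il1r2, Il1b, Il1rn, Il18r1, Nlrc4 and the Nlrp1 genes lie above 3, and Gbp5 and Il1r1 lie below −1.

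The genes whose centred log2 CPM profile over the 8 libraries lay nearest to that of each gene were found by the root mean square difference, among 9434 or 9435 candidates of sufficient level. A small constant was added to each CPM before the log. It shrinks the changes of genes of low level such as Il1b and Il18, so their matches are to damped profiles. Nearest to Il1r2 were Il1rn (0.19) and Mapk13 (0.20), and nearest to Il1b were Ddx58 (0.15) and Agap1 (0.17). Il18 lay nearest to Fcgr3 (0.15) and N4bp2l1 (0.16), and Il18bp to Fmnl2 (0.20) and Oplah (0.20). Nlrp3 had no equally close profile, with Hal and Tpd52 both at 0.26. The flatter profiles had closer matches. Casp1 lay nearest to Ppp2r5c and Uvrag (both 0.04), Casp4 to Ccdc125 (0.04) and Snx11 (0.06), Pycard to Tstd3 (0.04) and Eif4e3 (0.05), and Gsdmd to Stk4 and Ostf1 (both 0.05).

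Markers of mature neutrophils, monocytes and macrophages were also higher at day 6 than in untreated cells, as were 8 of the 9 genes. Of all genes 32.0% were higher in that comparison. The summed level of 10 mature neutrophil genes, all in the tables and none at 0 in any library, was 2873 and 1982 CPM in untreated cells, 5015 and 3154 CPM at day 2, 7975 and 11674 CPM at day 4, and 41730 and 51936 CPM at day 6. All 10 were higher at day 6 than at day 4, where 15.9% of all genes were higher. So were 5 of the 9 inflammasome and interleukin 1 genes (Casp4, Gsdmd, Il1b, Il18bp and Il1r2). The sum of 9 monocyte and macrophage genes was 5465 and 4956 CPM in untreated cells, 6759 and 7490 CPM at day 2, 11262 and 11874 CPM at day 4, and 10196 and 9850 CPM at day 6, with Ms4a7 at 0 in both untreated libraries and day 2 replicate 2, and Msr1 at 0 in untreated replicate 2 and day 2 replicate 1. Most of this sum is Ly6c2, at 6699 and 6485 CPM at day 6, against 8272 and 8775 CPM at day 4. All 9 were called higher at day 6 than in untreated cells, with a median log2 fold change of 4.78. Ms4a7, Msr1 and Mrc1 had 0 and 0, 2 and 0, and 7 and 5 counts in the untreated libraries. These 3 genes passed the filter on low counts through their day 4 and day 6 libraries, so a rise was favoured in advance. At day 6 against day 4, 4 of the 9 (Fcgr1, Mrc1, Adgre1 and Msr1) were higher and 1 (Ly6c2) was lower. Erythroid genes (6 of 9 in the tables) summed to 40.8 and 64.5 CPM at day 6, against 14.5 and 6.62 CPM in untreated cells and 3.45 and 6.63 CPM at day 4. Of these 6, 5 were higher at day 6 than in untreated cells and 5 were higher than at day 4, none lower in either. Alas2 and Slc4a1 had 13 and 7, and 9 and 7 untreated counts. They passed the filter through their day 6 libraries, so for them a rise was favoured in advance. B cell genes (all 9 in the tables) summed to 33.6 and 46.8 CPM at day 6, against 65.4 and 27.7 CPM in untreated cells, and to 121 CPM in day 2 replicate 1, against 9.87 CPM in day 2 replicate 2. T and NK cell genes (2 of 8 in the tables) summed to 105 and 93.8 CPM at day 6, against 131 and 112 CPM in untreated cells. Nearly all of this sum is Nkg7, at 104.7 and 93.2 CPM at day 6, where Klrb1c had 0.450 and 0.648 CPM. Dendritic cell genes (5 of 6) summed to 30.7 and 22.4 CPM at day 6, against 19.8 and 23.4 CPM in untreated cells. Most of this sum is Flt3, at 23.4 and 14.3 CPM at day 6. Of the 3 dendritic cell genes tested, 2 were higher at day 6 than in untreated cells, none lower, with a median log2 fold change of 2.295. Clec9a and Siglech had 4 and 1, and 8 and 4 counts in the untreated libraries. They passed the filter on low counts through later Dox libraries, so for them a rise was favoured in advance. Of the stromal and endothelial genes (2 of 6 in the tables), Pecam1 had 135 and 130.4 CPM at day 6, against 119 and 106 CPM in untreated cells, and was not called. Cxcl12 had 0.901 and 0.648 CPM at day 6, against 2.47 and 2.10 CPM in untreated cells, and was lower. The part of these cells in the results was not tested. In bulk RNA a change in the share of a cell type and a change in RNA per cell cannot be told apart.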

How the data were processed

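RNA was sequenced from sorted AML410 leukaemia cells in 8 libraries, 2 per group. Per the file headers, the authors deposited for each library a count and a gene length in bases for each Entrez gene ID, the count being a raw whole number. Per the submitters' processing notes the build was mm10, and the tools were featureCounts and CASAVA 1.8.2 with limma 3.22.0 and edgeR 3.8.2, without settings. Neither the aligner nor the strandedness is given in the sources used here. In every deposited gene the third highest of the 8 values is at least 0.501 CPM, so genes of low level are not in the tables.

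IDs were matched to symbols and coordinates with RefSeq for GRCm38.p6, the same build (12555 of 12830). In R 4.3.3, filterByExpr left 12330 genes. Counts were scaled by TMM and tested with edgeR 4.0.16 (glmQLFit, glmQLFTest) in 1 fit of all 8 libraries with group means and no covariate. Residual degrees of freedom were 4 and the prior ones 7.08, so much of the error is borrowed from other genes. Each SE is the absolute log2 fold change divided by the square root of F. RPKM are TMM-scaled CPM divided by the deposited gene length. The script was tested on simulated data. Replicates differed by more than sampling noise, with a median chi-square per degree of freedom of 0.701 to 5.14 over genes, against 0.455 for sampling noise alone, so no pair was merged.

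The 9 genes, the pathway and marker lists and the tests were chosen with earlier results of these data known. All 9 genes are named, with Spi1. From each pathway list the 3 called genes with the largest change at day 6 and all called genes against the direction of most of the list are named, and 2 nearest profiles per gene among genes with an average logCPM of at least 3. Other genes were named because a count was small. Alternatives were RLE scaling, scaling by total counts, no filter, DESeq2 1.42.0, the replicate number as a block, and leaving out each library.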

Additional observations from a re-analysis of the deposited data

How the results depend on the processing

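Of the 9 genes, 8 were called at day 6 against untreated cells in the main test and 6 under scaling by total counts, where the median of all genes was −0.175, −0.27 and −0.47 at days 2, 4 and 6, against 0.0042, −0.02 and −0.04 in the main test. Over all genes the calls were 516 higher and 240 lower at day 2, 3217 and 2707 at day 4, 3942 and 3897 at day 6 and 1961 and 1728 for day 6 against day 4. Under scaling by total counts they were 170 and 658, 1816 and 4519, 2078 and 6647, and 881 and 2646. Under that scaling 2 of the 9 genes were called at day 2, against 1 in the main test, and 3 for day 6 against day 4, against 5. The directions that turned under it, none of them called, were Pycard at day 2 (−0.041) and for day 6 against day 4 (−0.10), Casp4 at day 4 (−0.13), Il18bp at day 6 (−0.39), and Casp1 at day 6 (−0.00057) and for day 6 against day 4 (−0.0044). Of these, Casp1 at day 6 was called in the main test. DESeq2 called 1 of the 9 for the difference of steps, against 2. Over all genes it called 356 higher and 796 lower for this contrast, against 388 and 1033 in the main test. The cause of these differences was not tested.

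Leaving out each library in turn gave 325 to 1325 calls among all genes at day 2 (756 in the main test), 1726 to 4193 for day 6 against day 4 (3689) and 732 to 1690 for the difference of steps (1421). Dropping an untreated library left 1325 calls at day 2 (replicate 1 dropped) or 325 (replicate 2 dropped), dropping replicate 2 of day 2 left 397, and dropping a day 6 library left 402 (replicate 1) or 405 (replicate 2). For day 6 against day 4, dropping replicate 1 of day 4 left 1731, and dropping a day 6 library left 2132 (replicate 1) or 1726 (replicate 2). For the difference of steps, dropping a day 4 library left 732 (replicate 1) or 911 (replicate 2), and dropping replicate 2 of day 6 left 829. Of the 9 genes it gave 0 to 1 calls at day 2, 4 to 7 for day 4 against day 2 and 1 to 3 for the difference of steps. At day 2, Nlrp3 ran from −0.66 to 0.56, Pycard from −0.027 to 0.31, Casp1 from −0.085 to 0.0095, Casp4 from −0.039 to 0.031 and Il18 from −0.20 to 1.12. Casp4 ran from −0.080 to 0.30 at day 4, from −0.075 to 0.30 for day 4 against day 2 and from −0.077 to 0.67 for the difference of steps, and Il18bp from −0.034 to 0.12 at day 6. None of these was called. Of 702 values of the 9 genes under alternatives, 654 kept direction and call, 25 lost the call, 7 gained it and 16 turned direction.

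The replicate numbers do not pair the samples by the labels, and deviations of same-numbered libraries correlated at −0.144 to 0.185 between groups. With the replicate number as a block, 612 genes were called at day 2 and 7718 at day 6 (7839 in the main test), and 8 of the 9 genes at day 6. The difference of steps of Il1r2 was called with this block (0.90, edgeR adjusted p = 0.0401), giving 3 of 9 genes. Over all genes the block gave 374 higher and 970 lower for this contrast, against 388 and 1033 in the main test. The same alternatives for the pathway lists were added after the data were seen. Il1b and Il18, with under 60 counts in every library, are limited by depth.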
